A study of Mus musculus with 13 samples.

Results

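Male primordial germ cells that carried the Tet1-V allele were compared with those that carried Tet1-HxD, gene by gene, at E14.5, in mouse embryos. The comparison used the 3 V and the 3 HxD libraries, 6 of the 12 libraries analysed, and covered every gene that passed a filter on low counts, 14702 of 35976 symbols. The series concerns the part that catalysis by TET1 plays at imprinting control regions and in the low-methylation regions of sperm. V and HxD, like the wild type (WT) and the knockout (KO), were male germ cells sorted from embryos by the Oct4-GFP reporter, and RNA came from 5000 cells per library. The labels do not say whether the replicates were separate embryos or pools, how the alleles were bred or whether cells were homozygous, so the p-values reflect only how these libraries varied, possibly for technical reasons.

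TET1 is a dioxygenase that oxidises 5-methylcytosine in DNA to 5-hydroxymethylcytosine (5hmC), and further to formylcytosine and carboxylcytosine, which base excision repair can remove. In germ cells of the embryo most DNA methylation is erased, partly by dilution through replication, and TET1 is known for completing that erasure at imprinted genes and at promoters of germline genes. HxD is known as a form without catalytic activity and V as a form that makes 5hmC but little of the higher oxidation products. A difference between V and HxD therefore bears on what the formation of 5hmC alone changes. TET1 protein was not measured here.

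No gene passed the threshold between V and HxD (edgeR quasi-likelihood test, 0 of 14702 genes at an adjusted p under 0.05, 0% called, smallest adjusted p 0.514). At an unadjusted p under 0.05, edgeR gave 505 genes higher in V (3.43% of those tested) and 240 lower (1.63%), 745 in all against the 735 that 5% of the tests would be. The fitted log2 fold change was positive for 52.3% of all genes, with a median of 0.02. Every V library stood above every HxD library for 704 genes (4.79%) and below for 470 (3.20%). DESeq2 called 92 genes on the same counts, and 64 of those had no count in any of the 3 libraries of 1 genotype. Among the 23 that averaged 8 CPM or more, 12 were higher in V and 11 lower, with Haus4, Med12, Ermard, Mapk8ip3, Pkd2, Ktn1 and Stk10 among them. The libraries varied widely, with a common biological coefficient of variation of 0.932, and among the 9231 genes averaging at least 8 CPM (counts scaled to a common library size) the median standard error of a log2 fold change was 0.30. A test with no call does not show that the genotypes had the same transcripts.

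The excess of higher over lower genes lay among weakly expressed genes. Of the 745 genes at an unadjusted p under 0.05, 298 had no count in all 3 libraries of 1 genotype, 259 of them higher in V and 39 lower. Among the 424 that averaged 8 CPM or more, 224 were higher in V and 200 lower. The number of genes with a count was 13376, 12231 and 12520 in HxD replicates 1 to 3, and 13840, 15715 and 12100 in V. Total counts were 29641963, 23723718 and 15037595 in HxD and 22220736, 22238389 and 13584484 in V, so V replicate 2 had more genes detected than HxD replicate 1 with fewer counts. Its part in the excess was not tested beyond the fit without it, which gave 478 genes higher and 490 lower.

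**Figure D1:**
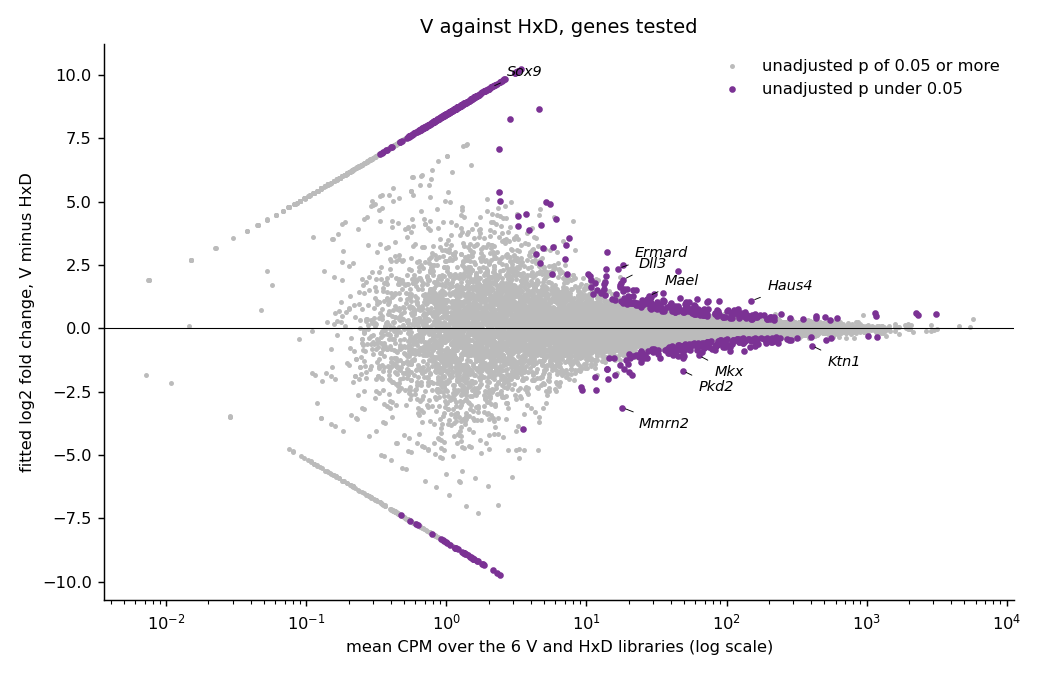
Fitted log2 fold change of V over HxD (vertical axis) against the mean CPM of the 6 libraries (horizontal axis, log scale) for the genes tested; purple points have an unadjusted p under 0.05. The 2 straight arms hold genes at 0 in all libraries of 1 genotype, whose fitted value is set by the prior count, and Haus4 and Pkd2 have the smallest p on either side.

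V replicate 2 carried more transcripts of the somatic cells that surround germ cells in the testis, chiefly Sertoli cells. Summed over 16 Sertoli markers, the level was 25.8, 61.5 and 56.7 CPM in HxD and 32.9, 573 and 59.3 CPM in V, so only V replicate 2 lay outside the range of the others. Over those 16 genes 15 had a positive log2 fold change, with a median of 2.43 and of -0.10 without V replicate 2. Amh, the hormone by which Sertoli cells make the Müllerian duct regress, was at 1.54, 25.7 and 19.4 CPM in HxD and at 3.40, 216 and 5.80 CPM in V. Sox9, the factor that specifies Sertoli cells, had no count in any HxD library and stood at 0.715, 9.14 and 2.72 CPM in V. Macrophage markers summed to 0.855, 2.696 and 0 CPM in HxD and to 5.63, 40.6 and 8.07 CPM in V. All somatic markers together summed to 361 to 395 CPM in HxD and to 432, 921 and 467 CPM in V, without overlap. Outside V replicate 2, Ptch1 and Scarb1 made up a large part of these sums. Ptch1 was at 113 to 154 CPM in HxD and 125 to 185 CPM in V. Scarb1 was at 67.3 to 69.7 CPM in HxD and 73.0 to 94.9 CPM in V. Ptch1 was itself called lower in KO than in WT. Whether the lack of overlap in the sum reflects somatic cells in every V library was not tested. Marker sums of Leydig, interstitial, endothelial, erythroid, granulosa and mesonephric cells overlapped between the genotypes. The sums of macrophage markers and of all somatic markers did not overlap, each with an exact permutation p of 0.1 (two-sided). That is the smallest p that 3 against 3 allows, so no list could fall below it. In sorted bulk samples more cells of a type and more RNA per cell cannot be told apart. Markers of germ cells summed to 3488 to 4062 CPM in HxD and 3830 to 4178 CPM in V, so germ cell transcripts were abundant in both genotypes.

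**Figure D2:**
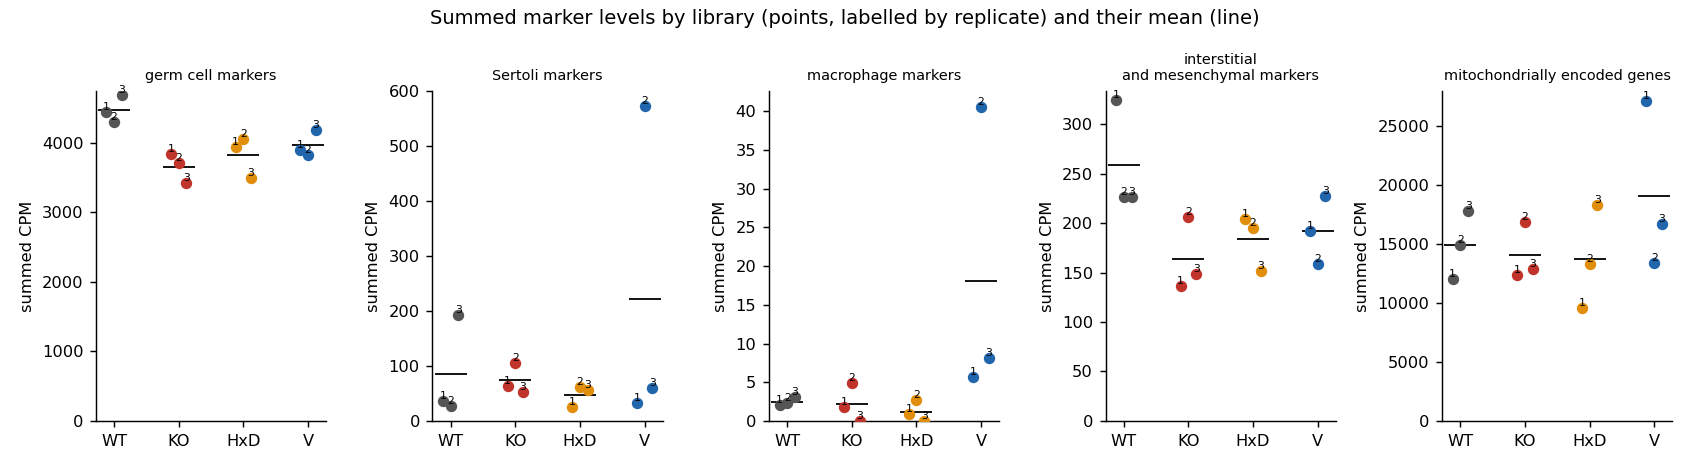
Summed CPM of germ cell, Sertoli, macrophage and interstitial markers and of the mitochondrially encoded genes, for each library of the 4 genotypes (points with replicate numbers) with the mean as a line. V replicate 2 stands apart at 573 CPM for Sertoli and 40.6 CPM for macrophage markers, and V replicate 1 at 27054 CPM for mitochondrial genes.

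Tet1 transcripts were present in both alleles. Tet1 stood at 607, 735 and 536 CPM in HxD and at 364, 450.3 and 625 CPM in V, against 608 ± 27.0 CPM in WT and 213 ± 11.8 CPM in KO (SD, n = 3). V replicates 1 and 2 were below all HxD libraries and replicate 3 lay within them. The log2 fold change was -0.38 ± 0.17 (SE), and it did not pass the test (edgeR adjusted p = 0.861). Tet2, the relative that also makes 5hmC but lacks the DNA-binding CXXC domain of TET1, was at 12.4, 12.3 and 7.75 CPM in HxD and at 15.1, 20.6 and 18.5 CPM in V, without overlap, and its log2 fold change of 0.74 ± 0.52 missed the threshold as well (edgeR adjusted p = 0.918). Tet3 was at or under 11.4 CPM in all 6 libraries.

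The promoters of 4 genes are shown because TET1 acts on methylated CG dinucleotides. The windows below run from 250 bases before to 50 bases after the transcript start in RefSeq on GRCm38.p6, 5′ to 3′ on the gene's strand, with every CG in capitals. Mael and Dazl are germline genes whose promoters are known to be methylated in somatic cells, and Haus4 and Pkd2 had the smallest p on the higher and the lower side.
Mael: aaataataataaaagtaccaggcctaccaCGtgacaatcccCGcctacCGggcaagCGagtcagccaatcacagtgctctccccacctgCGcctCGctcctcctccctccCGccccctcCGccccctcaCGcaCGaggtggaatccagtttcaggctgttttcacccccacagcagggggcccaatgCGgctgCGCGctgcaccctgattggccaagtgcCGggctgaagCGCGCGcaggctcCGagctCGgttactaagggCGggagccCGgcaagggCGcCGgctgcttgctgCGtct
Dazl: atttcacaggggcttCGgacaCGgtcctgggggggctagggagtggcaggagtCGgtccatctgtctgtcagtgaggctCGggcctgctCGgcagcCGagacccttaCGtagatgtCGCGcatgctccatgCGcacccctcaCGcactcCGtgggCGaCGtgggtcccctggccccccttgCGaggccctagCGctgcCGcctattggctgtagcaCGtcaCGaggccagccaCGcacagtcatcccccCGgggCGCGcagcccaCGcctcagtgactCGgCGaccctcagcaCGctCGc
Haus4: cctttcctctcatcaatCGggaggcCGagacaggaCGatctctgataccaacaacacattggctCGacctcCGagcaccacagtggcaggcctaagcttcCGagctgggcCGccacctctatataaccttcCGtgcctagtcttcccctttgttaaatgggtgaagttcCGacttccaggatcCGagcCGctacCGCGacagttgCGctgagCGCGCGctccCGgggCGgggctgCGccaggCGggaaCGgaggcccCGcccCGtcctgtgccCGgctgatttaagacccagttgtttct
Pkd2: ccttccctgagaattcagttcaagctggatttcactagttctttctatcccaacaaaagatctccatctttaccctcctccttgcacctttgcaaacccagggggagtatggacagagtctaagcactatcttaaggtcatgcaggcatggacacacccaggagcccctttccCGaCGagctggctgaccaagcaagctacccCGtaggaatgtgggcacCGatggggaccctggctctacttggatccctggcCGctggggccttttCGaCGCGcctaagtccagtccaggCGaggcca
The Mael window (chr1:166238695-166238994, minus strand) holds 24 CG, the Dazl window (chr17:50293571-50293870, minus strand) 28 CG and the Haus4 window (chr14:54554312-54554611, minus strand) 25 CG. The Pkd2 window (chr5:104459207-104459506, plus strand) holds 9 CG. As many CG as in Mael are found in 20.0% of the 32851 windows of this length, and as many as in Dazl in 14.2%, as in Haus4 in 18.4% and as in Pkd2 in 45.8%. Those windows are not limited to the genes tested. In the classes of tested genes given below, Mael and Haus4 fall in the middle (17 to 26 CG). Dazl falls in the highest class and Pkd2 in the lowest. The E-box letters CACGTG, read on both strands, occur in the Mael window and in 7.15% of all windows. The letters GCGGGA, contained in the motif of E2F6, a repressor of germline genes, occur on either strand in the Mael and Haus4 windows and in 20.0% of all windows. Neither run of letters is in the Dazl or the Pkd2 window. Such a match is a description of the sequence.

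Fold changes were compared by the CG content of the promoter. For the 8722 tested genes with a single window, the median log2 fold change of V over HxD was 0.07 in the 3048 genes with 0 to 16 CG, 0.01 in the 2964 genes with 17 to 26 CG and -0.01 in the 2710 genes with 27 to 65 CG. The share of genes with every V library above every HxD library was 4.66%, 5.16% and 4.54% in the same order, and the share with every V library below was 2.23%, 2.90% and 3.43%. At an unadjusted p under 0.05, 4.13%, 2.80% and 2.55% were higher in V and 1.25%, 1.42% and 1.88% lower. The share with a positive fold change was 54.2%, 51.3% and 49.1%. Genes with few CG thus more often had a positive fold change. They did not more often have every V library above HxD, at 4.66% against 5.16% in the middle class. Expression level and V replicate 2 were not taken into account, and no test of that difference was made.

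Mael had the smallest p among the germline genes with methylation-controlled promoters. Mael, which acts in transposon silencing by piRNAs, was at 20.2, 19.8 and 8.92 CPM in HxD and at 31.0, 34.9 and 52.9 CPM in V. Every V library was above every HxD library, and all 6 were below WT, where Mael was at 173, 100.5 and 89.6 CPM. The KO libraries, at 9.54, 23.9 and 32.9 CPM, overlapped with both. The log2 fold change of V over HxD was 1.27 ± 0.38 (SE, 95% interval 0.50 to 2.05), and it did not pass over all genes (edgeR adjusted p = 0.861).

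The 43 tested germline genes with methylation-controlled promoters gave 30 positive and 13 negative log2 fold changes, a share of 69.8% against 52.3% of all genes, with a median of 0.15 against 0.02. None passed the test. Their median level relative to the 6-library mean, on the log2(CPM + 1) scale, was 0.19, -0.14 and -0.23 in HxD and 0.02, -0.05 and 0.31 in V, so HxD replicate 1 lay above 2 of the V libraries. Dazl, an RNA-binding protein needed for germ cell development, was at 944, 858 and 576 CPM in HxD and at 1015, 672 and 1172 CPM in V, a log2 fold change of 0.27 ± 0.19 with a 95% interval of -0.12 to 0.65. WT libraries had 1605 to 1906 CPM of Dazl, above every V and HxD library. Ddx4, the germ cell RNA helicase also called Vasa, was at 683, 613 and 473 CPM in HxD and at 624, 613 and 874 CPM in V, and overlapped. Sycp2, of the axis of meiotic chromosomes, was at 34.1, 4.11 and 12.9 CPM in HxD and 51.4, 22.6 and 57.6 CPM in V, with V replicate 2 inside the HxD range. Among the settings tried it was called only without HxD replicate 1, its highest HxD library (edgeR adjusted p = 0.025). Tex14, a component of the bridges between germ cells, was nearly level at 239, 229 and 249 CPM in HxD and 245, 251 and 249.996 CPM in V, with an interval of -0.26 to 0.37 on the log2 scale. Tdrd1, a Tudor protein of the piRNA pathway, gave -0.05 ± 0.38. Of the 31 list members with a single promoter window, CACGTG is in 9 (29.0%) and GCGGGA in 15 (48.4%). Their median of 17 CG is at the lower edge of the middle class of tested genes.

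Other lists of germ cell genes share members with this one, 12 of the piRNA genes, 12 of the meiotic genes, 2 of the spermatogonial genes and 5 of the RNA-binding regulators. Of 24 piRNA genes 16 had a positive fold change (median 0.14) and of 36 meiotic genes 23 (median 0.14). Of 20 spermatogonial genes 12 were positive (median 0.17). The 22 RNA-binding regulators and male fate genes were nearer to level, with 12 positive and a median of 0.03. In that list Nanos1 and Ythdf2 were lower in every V than in every HxD library and no gene was higher in every one. Of all genes tested, 3.20% were lower in every V library and 4.79% higher. Uchl1, a ubiquitin hydrolase of spermatogonia, was at 93.2, 90.4 and 97.2 CPM in HxD and at 224, 81.6 and 121 CPM in V, where replicate 2 was below the HxD libraries. The list of pluripotency and germ cell specification genes went to neither side, with 12 of 30 positive and a median of -0.05. Pou5f1, which encodes OCT4 and drives the sorting reporter, was at 371, 526 and 494 CPM in HxD and 529, 591 and 429.6 CPM in V. Kit, the receptor by which germ cells migrate and survive, was at 652, 694 and 456 CPM in HxD and 262, 539.7 and 495 CPM in V, with V replicate 1 lowest.

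The KO and WT libraries share none with V and HxD, and the genes called between them were followed here. KO against WT called 22 genes lower in KO (0.150% of those tested) and 10 higher (0.0680%) by edgeR at an adjusted p under 0.05. Of the 22 genes lower in KO, 18 were higher in V than in HxD (81.8%, median log2 fold change 0.27), where 52.3% of all genes were. The 4 others were Tet1, the gene targeted in the KO, and Tdrd1, Akap11 and Rab3gap2. Of the 10 genes higher in KO, all 10 were lower in V than in HxD, with a median of -0.41. V and HxD did not overlap for Mael, Pmaip1, Sgk3 and Smurf1 among the 22, nor for Mkx and Mfge8 among the 10, where 4.79% of all genes were higher in every V library and 3.20% lower. No gene of either list passed the test of V against HxD. The lists were known before V and HxD were compared here, and the genes share their libraries.

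Leaving out 1 library gave 15 of 22 (without HxD replicate 3) to 21 of 22 (without V replicate 1), and 9 or 10 of 10. Without V replicate 2 the counts were 19 and 10, with medians of 0.34 and -0.66. A fit on the 6 WT and KO libraries alone called 10 genes lower in KO, 8 of them higher in V than HxD, and 2 higher in KO, both lower in V. Of 668 genes lower in KO at an unadjusted p under 0.05, 52.2% were higher in V, close to the share of all genes, and of 552 genes higher in KO 39.7% were.

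**Figure D3:**
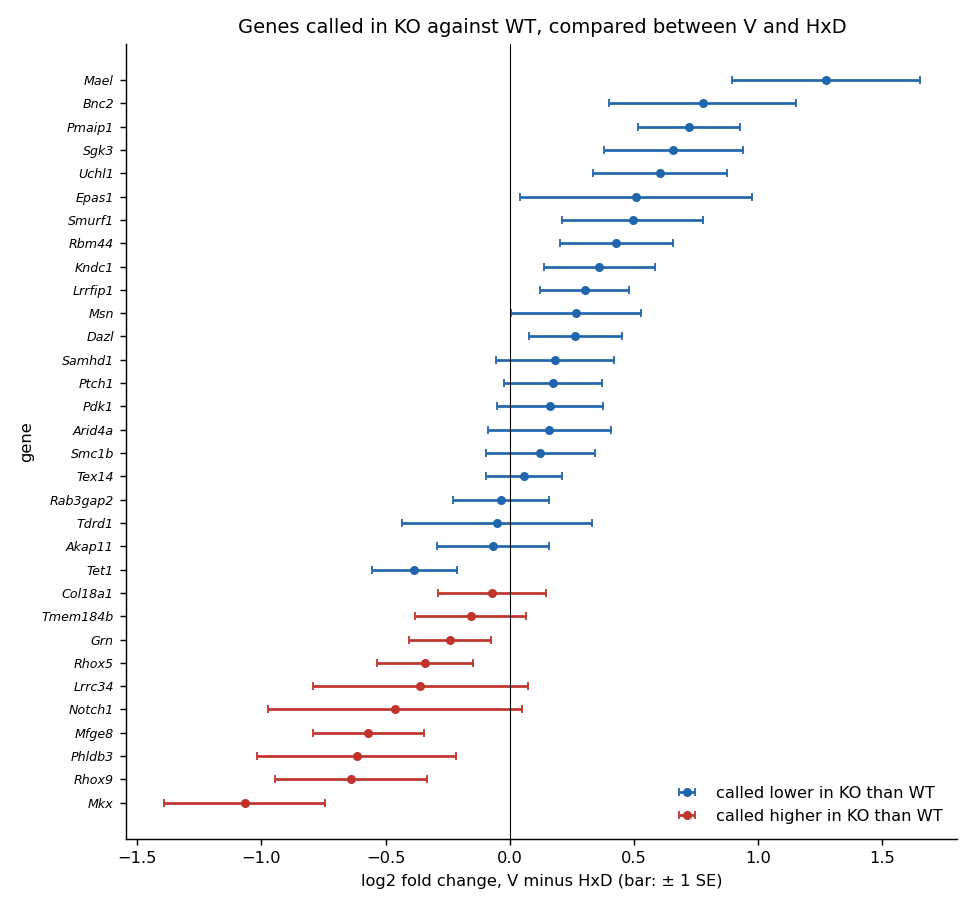
Log2 fold change of V over HxD with 1 SE on either side (horizontal axis) for the 32 genes called between KO and WT (vertical axis), blue where lower in KO and red where higher. Blue points lie above 0 for 18 of 22 genes and red points below 0 for 10 of 10.

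Values of these genes ran as follows. Pmaip1, which encodes the cell death protein NOXA, was at 85.0, 104 and 79.5 CPM in HxD and at 159, 122 and 162 CPM in V, against 148 to 232 CPM in WT and 79.1 to 113 CPM in KO. The V libraries overlapped with WT and the HxD libraries with KO. Sgk3, a kinase of the AKT family, was at 29.7, 33.8 and 35.7 CPM in HxD and at 52.7, 49.6 and 54.5 CPM in V, and stood at 86.1 ± 23.3 CPM in WT and 24.5 ± 2.68 CPM in KO (SD, n = 3). The V libraries of Sgk3 lay close together between the other groups. Mkx, a homeobox gene known from tendon, was at 64.0, 103 and 90.1 CPM in HxD and at 42.9, 51.0 and 28.5 CPM in V, against 26.2 ± 15.4 CPM in WT and 79.7 ± 11.8 CPM in KO. Mfge8, a secreted protein that marks dying cells for uptake, was at 263, 214 and 210.0 CPM in HxD and 155, 192 and 115 CPM in V. Both were lower in every V library than in any HxD library. Notch1, a receptor gene, was at 38.6, 42.4 and 40.1 CPM in HxD and 17.5, 40.6 and 29.8 CPM in V, with V replicate 2 inside the HxD range. Epas1, which encodes the hypoxia factor HIF2A, was at 21.8, 18.9 and 31.9 CPM in HxD and 47.8, 18.003 and 37.5 CPM in V, against 1.41 to 6.72 CPM in KO. Bnc2, a zinc finger gene of germ cells, was at 49.7 to 52.3 CPM in HxD and at 119.9, 26.7 and 117 CPM in V, so that replicate 2 again stood below.

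The 12 genes of smallest p on either side, among those averaging 8 CPM or more, are given as values, since none passed the edgeR test with all libraries and the filter on low counts. Haus4, Pkd2, Pop1 and Asns passed it under some other settings, named beside each. Haus4, a subunit of the augmin complex that branches spindle microtubules, was at 130.4, 99.9 and 59.8 CPM in HxD and at 213, 209 and 191 CPM in V. The groups did not overlap, and KO libraries stood at 200.03 to 206 CPM and WT libraries at 76.0 to 156 CPM. Its log2 fold change was 1.08 ± 0.23 (SE, edgeR adjusted p = 0.514). Among other edgeR settings Haus4 passed with a replicate block (adjusted p = 0.0247), with no filter (0.000874) and without HxD replicate 1 (0.00726), and in the remaining settings its adjusted p was 0.125 to 1. The edgeR fit with no filter also called Amh (adjusted p = 0.000874), the Sertoli gene whose high level in V lay in replicate 2. Med12, a subunit of the Mediator kinase module, was at 55.3, 43.3 and 42.5 CPM in HxD and 73.2, 82.4 and 137 CPM in V. Ermard, an endoplasmic reticulum protein gene, was at 5.54, 3.04 and 8.01 CPM in HxD and 18.3 to 35.1 CPM in V, a log2 fold change of 2.36 ± 0.58 (edgeR adjusted p = 0.653). Mapk8ip3, a scaffold for JNK signalling, was at 39.3 to 56.3 CPM in HxD and 84.4 to 129 CPM in V. For the last gene WT, at 54.4 ± 11.2 CPM, and KO, at 64.5 ± 20.3 CPM, were both nearer to HxD.

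The other 8 genes higher in V were Pnpla6, Pmaip1, Dll3, Tpi1, Mael, Nono, Nt5dc2 and Pop1, with log2 fold changes from 0.71 to 1.91. Nono, a splicing and paraspeckle protein, was at 88.1, 73.7 and 94.1 CPM in HxD and 162, 119 and 136 CPM in V, against 146 ± 26.7 CPM in WT and 87.4 ± 18.2 CPM in KO. Only Pop1, a subunit of RNase P, overlapped between the genotypes, at 16.2 to 60.9 CPM in HxD and 58.3 to 134 CPM in V. Pop1 passed the edgeR test with no filter (adjusted p = 0.0148) and without HxD replicate 1 (0.0184). Of all 12, the WT mean was nearer to V than to HxD on the log2 scale in 10 and the KO mean in 4.

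Pkd2, a cation channel of primary cilia, had the smallest p among genes lower in V. It was at 68.5, 78.4 and 75.9 CPM in HxD and at 12.5, 36.3 and 20.8 CPM in V, without overlap. WT libraries had 27.3 to 54.1 CPM and KO libraries 24.1 to 35.5 CPM, so the HxD libraries were the highest of the 12. The log2 fold change was -1.68 ± 0.36 (SE, edgeR adjusted p = 0.514). Pkd2 passed the edgeR test with a replicate block (adjusted p = 0.0398), with no filter (0.00773) and without V replicate 2 (0.00897), and in the remaining settings its adjusted p was 0.0665 to 1. Ktn1, the kinesin receptor kinectin, was at 588, 487 and 426 CPM in HxD and 287, 298 and 350.5 CPM in V. Stk10, a kinase of the cell cortex, was at 71.8, 61.6 and 68.5 CPM in HxD and 27.5, 35.6 and 27.4 CPM in V, against 52.4 to 74.4 CPM in WT and 40.9 to 66.6 CPM in KO. The V libraries of Stk10 were the lowest of the 12. Mmrn2, an endothelial matrix protein, was at 23.5, 27.8 and 45.6 CPM in HxD and at 6.17 CPM or less in the 9 others. Summed endothelial markers, mostly Cldn5 and Egfl7, were at 23.9 to 34.5 CPM in HxD and 20.6 to 70.0 CPM in V. Which cells the Mmrn2 transcripts came from was not tested.

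The remaining genes lower in V were Spats2, Mmp15, Galnt2, Sec22a, Sgol1, Asns, Stox2 and Zfp862-ps, with log2 fold changes from -1.85 to -0.75. Galnt2, which starts O-linked glycans, and Mmp15, a membrane metalloproteinase, had WT means nearer to V and KO means nearer to HxD, as did Stox2. Galnt2 was at 213, 184 and 154 CPM in HxD and 108, 140.4 and 78.9 CPM in V, with 109.7 ± 16.4 CPM in WT and 175 ± 22.2 CPM in KO. Asns, the asparagine synthetase, overlapped through V replicate 2, at 149.5, 217 and 149.7 CPM in HxD and 68.8, 151 and 60.2 CPM in V, and among the settings tried edgeR called it only without that library (adjusted p = 0.00822). Over the 24 genes with the smallest p, WT was nearer to V in 17 and KO in 10. Among all 9231 genes averaging 8 CPM or more, WT was nearer to V in 50.7% and KO in 48.9%. The 24 were chosen on the difference between V and HxD, so these counts are a description.

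**Figure D4:**
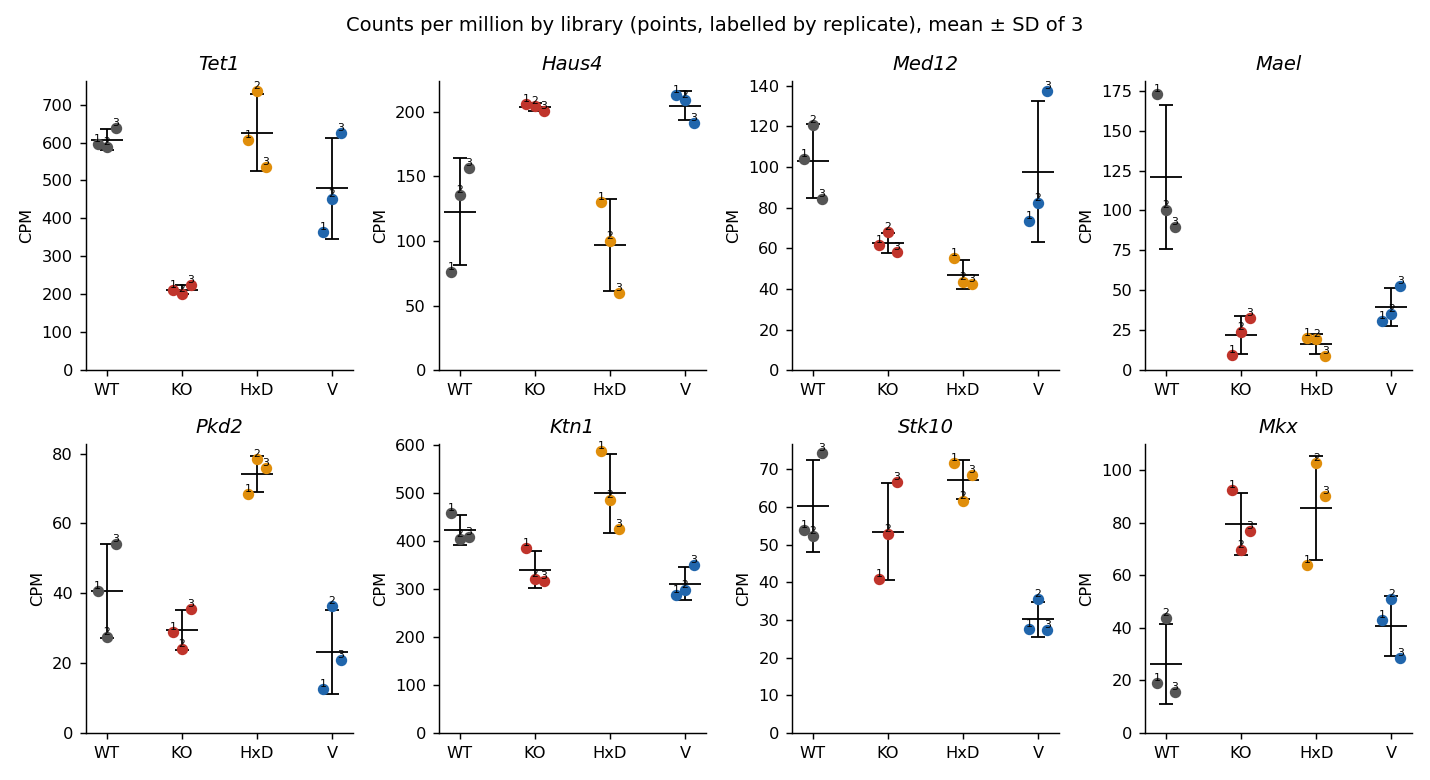
CPM of 8 genes in each of the 12 libraries (points with replicate numbers), by genotype, with the mean and SD of 3. Haus4, Med12 and Mael are higher in all V than in all HxD libraries and Pkd2, Ktn1, Stk10 and Mkx lower, while Tet1 overlaps.

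Imprinted genes, which TET1 is known to act on through their control regions, included no gene that passed the test. Of 27 maternally expressed genes 17 had a positive fold change (median 0.14), and of 24 paternally expressed genes 13 (median 0.01). Every V library was above every HxD library for 1 maternally expressed gene, Gnas, and for 3 paternally expressed genes, Peg10, Nnat and Zdbf2. None was below in every V library. Over all genes tested, 4.79% were above in every V library and 3.20% below. Nnat, a small membrane protein of neurons, was low throughout, at 2.43, 0 and 5.49 CPM in HxD and 8.45, 8.59 and 6.53 CPM in V, and Zdbf2 was at 7.21, 13.9 and 13.3 CPM in HxD and 17.3, 14.2 and 18.7 CPM in V. Gnas, a G protein subunit whose locus is imprinted in a complex way, was at 71.7, 106 and 82.6 CPM in HxD and at 139, 129 and 136 CPM in V. The groups did not overlap, with WT at 60.2 to 96.4 CPM and KO at 111 to 147 CPM, and the log2 fold change was 0.63 ± 0.21 (SE, edgeR adjusted p = 0.861). Peg3, a zinc finger gene expressed from the paternal allele, was at 406, 547 and 382 CPM in HxD and 224, 409 and 512 CPM in V. Igf2r, expressed from the maternal allele, differed by 0.00 ± 0.18 on the log2 scale, with a 95% interval of -0.35 to 0.36. Transcripts of the parental alleles were not separated.

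The enzymes of DNA methylation and its removal were near level. Of 14 genes of methyltransferases and maintenance 7 were positive (median -0.01), as were 12 of 24 of oxidised cytosine removal and base excision repair (median -0.02). Uhrf1, which brings DNMT1 to newly replicated DNA, was at 71.4, 41.3 and 42.6 CPM in HxD and 105, 54.4 and 94.0 CPM in V, with V replicate 2 inside the HxD range. Cdca7, a partner of the remodeller HELLS, was at 95.8, 68.9 and 72.4 CPM in HxD and 97.3, 108 and 122 CPM in V, barely without overlap. Dnmt1, the maintenance methyltransferase, gave -0.09 with a 95% interval of -0.42 to 0.24. Tdg, the glycosylase that removes formylcytosine and carboxylcytosine, was at 22.9, 39.2 and 18.5 CPM in HxD and 23.0, 16.0 and 11.6 CPM in V, and the groups overlapped. Polycomb, PRC1.6, H3K9 methylation, methyl-CpG reader and OGT and SIN3A lists had medians from -0.02 to 0.04.

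Among lists of at least 5 tested genes, cell type markers and the genes called in KO aside, the Notch list had the highest median after the mitochondrially encoded genes. Of 18 tested, 14 were positive with a median of 0.38 (0.30 without V replicate 2), and the median level relative to the 6-library mean was -0.16, -0.13 and -0.18 in HxD and 0.25, 0.36 and 0.11 in V. Most of these genes were weakly expressed. Dll3, an inhibitory Notch ligand, was at 6.19, 6.16 and 10.7 CPM in HxD and 42.4, 13.8 and 30.4 CPM in V, a log2 fold change of 1.91 ± 0.55 (edgeR adjusted p = 0.861). Nrarp, a feedback inhibitor that Notch induces, was at 2.50, 0 and 0.905 CPM in HxD and at 11.7, 9.27 and 10.3 CPM in V, and WT and KO were near V at 10.6 ± 4.01 and 9.87 ± 7.66 CPM. The receptors were closer to level: Notch1 gave -0.46 ± 0.51 and Notch3 0.01 ± 0.23. Notch2 gave 0.21 ± 0.19.

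Lists of metabolism and growth differed by library more than by genotype. All 8 tested mitochondrially encoded genes were positive, with a median of 0.55, and their sum was 9532, 13264 and 18266 CPM in HxD and 27054, 13377 and 16705 CPM in V. V replicate 1 alone exceeded the HxD range. Of 69 ribosomal protein genes 61 were positive, with a median of 0.12, and none had V and HxD apart, where 4.79% of all genes were higher in every V library and 3.20% lower. The median was 0.20 without V replicate 2 and -0.07 without V replicate 1. Relative to the 6-library mean the list stood at 0.02, -0.20 and 0.02 in HxD and at 0.40, -0.12 and -0.11 in V, so V replicate 1 alone was above HxD. Rplp0, of the ribosomal stalk, was at 878, 955 and 1048 CPM in HxD and 1642, 1413 and 1022 CPM in V. Of 41 nuclear respiratory chain genes 28 were positive (median 0.05), and of 30 glycolytic genes 19 (median 0.10). Tpi1, the triosephosphate isomerase, was at 19.7, 41.5 and 24.1 CPM in HxD and 95.6, 55.7 and 43.6 CPM in V.

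Cell cycle lists were centred near 0, with 16 of 37 replication, 15 of 30 mitosis and 12 of 23 G1 arrest genes positive. Male germ cells are known to enter mitotic arrest at about this age. Cdk6, a G1 kinase, was at 24.9, 8.60 and 24.9 CPM in HxD and 45.8, 38.6 and 69.7 CPM in V, a log2 fold change of 1.40 ± 0.44 without overlap (edgeR adjusted p = 0.861). Cdk2 was at 46.9, 47.4 and 59.4 CPM in HxD and 102, 59.8 and 82.2 CPM in V. Ttk, the spindle checkpoint kinase, was lower in each V library, at 144 to 165 CPM in HxD and 84.3 to 131 CPM in V, and gave -0.48 ± 0.22.

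Some lists turned on single libraries. Immediate-early genes, which cells switch on within minutes of stress or dissociation, were positive in 15 of 19 with a median of 0.25. Without V replicate 2 they were positive in 9 of 19, with a median of -0.09. Cyr61 was at 0, 0 and 2.46 CPM in HxD and 0, 40.9 and 4.40 CPM in V. Jun was at 11.9, 7.83 and 18.026 CPM in HxD and 22.1, 39.5 and 29.5 CPM in V, above HxD in all 3. Rhox homeobox genes, an X-linked cluster, were negative in 6 of 9 with a median of -0.34. It was -0.66 without V replicate 2 and turned to 0.10 without HxD replicate 1. Rhox9 was at 129, 107 and 161 CPM in HxD and 59.1, 129 and 67.0 CPM in V, and Rhox5 at 316, 362 and 410.3 CPM and 297, 366 and 196 CPM. In both, V replicate 2 was the highest V library.

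**Figure D5:**
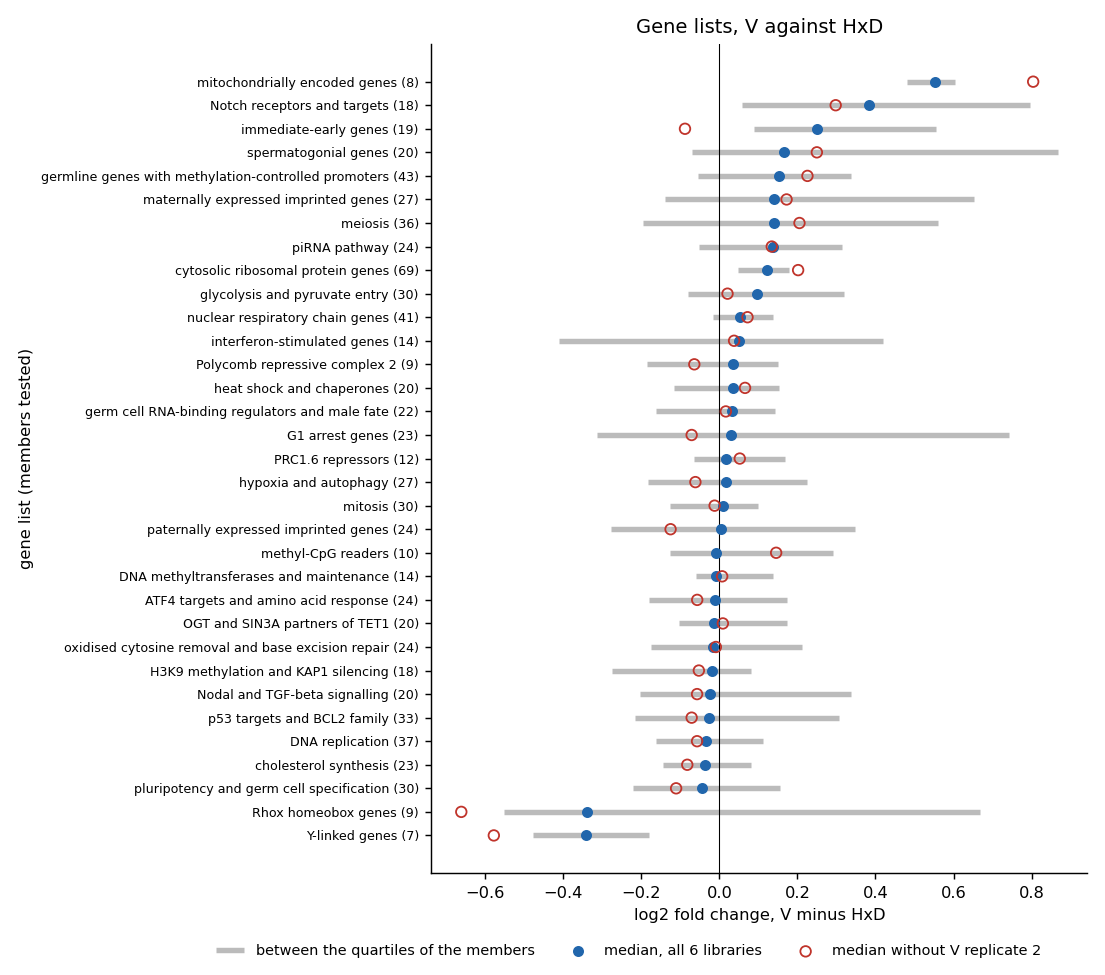
Median log2 fold change of V over HxD (horizontal axis) for each gene list with at least 5 tested members (vertical axis, number tested in brackets), with all 6 libraries (filled) and without V replicate 2 (open); grey bars span the range between the quartiles of the members. Cell type markers and the genes called in KO are left out. Among the lists shown, mitochondrial and Notch genes have the highest medians, at 0.55 and 0.38, and immediate-early genes move from 0.25 to -0.09.

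A further group of genes was counted in every library of 1 genotype and in none of the other. There were 104 genes at 0 in all HxD libraries and counted in every V library, and 12 the other way, 101 and 9 of which were tested. Borcs6, a subunit of a lysosome-positioning complex, had 407 counts over the V libraries, at 9.44, 7.10 and 2.86 CPM. In pooled CPM that was 159-fold above a floor of 3 counts over the HxD libraries. Klhdc8b, a kelch protein, had 400 counts and was 156-fold above that floor. Prkca, a protein kinase C, had 205 counts in HxD and none in V. Its HxD level was 58.3-fold above a floor of 3 counts over the V libraries. The floor covers counting error only and not the spread between libraries, so these folds are not lower bounds on a genotype difference. Klhdc8b, for example, ranged from 0 to 9.32 CPM among the WT libraries. These 3 genes were chosen after their values were seen. All 3 were present in WT or KO libraries at up to 15.9 CPM, and none passed the test (edgeR adjusted p = 0.653, 0.672 and 0.861). HxD and V differ in how many genes they detect, as given above, and the part of detection in these absences was not tested.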

How the data were processed

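Polyadenylated RNA of sorted male germ cells was sequenced, and the authors deposited a table of read counts per gene symbol, in whole numbers. The submitters' processing notes name featureCounts 2.0.3, STAR 2.7.10b, Trim Galore 0.6.7, SAMtools 1.9 and FastQC, without saying what each did, and GRCm39 beside mm10 as genome builds. Neither annotation nor strand setting is given in the sources used here, so overlapping and antisense genes cannot be told apart. 1 column of counts names no sample and was not used, and the WT sample numbered 4 was not analysed here. No pair of libraries held identical values.

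Counts were fitted with edgeR 4.0.16 in R 4.3.3 (filterByExpr, TMM, quasi-likelihood test) over 12 libraries with a term for each of the 4 genotypes, and p-values were Benjamini-Hochberg adjusted over 14702 genes. Total counts per library bound the precision of low values, and floors cover counting error only. CPM are TMM-scaled. The standard error is the log2 fold change divided by the root of F, and intervals cover 95%. Named genes were Tet1 to Tet3, up to 12 genes of smallest p on either side averaging 8 CPM or more, the 2 members of each list with the smallest p, and genes called in earlier results, leaving out unnamed gene models. Igf2r, Dnmt1, Tdg, Notch2, Notch3, Amh, Nanos1, Ythdf2, Peg10, Zdbf2 and other genes called between KO and WT fall outside that rule and were chosen after their values were seen. The comparison, lists and members were chosen with earlier results of these data known.

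Alternatives were RLE size factors, DESeq2 1.42.0, no filter, a stricter filter and the 6 libraries alone. Others were a replicate block, a somatic marker covariate and leaving out each library. The stricter filter kept genes with at least 1 CPM in each of the 6 libraries or at least 8 CPM on average over them. Promoter windows came from RefSeq (GRCm38.p6), matched by symbol for 8722 of the genes tested. The edgeR script was tested on simulated data.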

Additional observations from a re-analysis of the deposited data

How the results depend on the processing

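No call between V and HxD was made by edgeR with RLE size factors, the stricter filter, the V and HxD libraries only or the somatic marker covariate. DESeq2 called 92 genes (69 higher in V, 23 lower), no low-count filter 5 (4 and 1), and leaving out 1 library gave 0 to 11 (0 to 11 higher, 0 to 3 lower), with 11 without HxD replicate 1 and 3 without V replicate 2. Same-numbered V and HxD libraries had correlations of deviations of 0.049, 0.062 and -0.0744, and the other pairs -0.122 to 0.0838. The same-numbered values thus lay within the range of the others. Deviations sum to 0 within each genotype of 3, so these values are not independent, and whether the numbers pair libraries was not tested. Replicate 3 had the lowest total counts in both genotypes. The fit with the replicate block called 2 genes, 1 higher (Haus4) and 1 lower (Pkd2), gave 363 genes higher and 252 lower without adjustment, and moved the median of p53 targets and BCL2 family genes to 0.0703. Genes higher at an unadjusted p under 0.05 numbered 222 with the stricter filter and 226 with the V and HxD libraries only, and genes lower 392 by DESeq2, 159 with the V and HxD libraries only and 194 to 490 when leaving out 1 library. With the somatic marker covariate the log2 fold change reversed for Clu (-1.11), Cyr61 (-1.32), Gtsf1 (-1.09), Hsd3b1 (-1.82), Tek (-0.14) and Tdrd1 (0.31). It moved list medians to 0.0368 (oxidised cytosine removal and base excision repair), 0.24 (methyl-CpG readers), 0.14 (PRC1.6), 0.27 (Notch), -0.0696 (hypoxia and autophagy) and -0.28 (immediate-early). The Notch median was 0.23 with the stricter filter, and the interferon-stimulated median -0.20 with the V and HxD libraries only. Leaving out 1 library gave -0.69 to 8.10 for Bmp2, -0.49 to 0.0455 for Peg3, -0.53 to 0.22 for Tdrd1 and -8.35 to 0.44 for Usp9y. List medians ran over -0.0368 to 0.0513 (oxidised cytosine removal), 0.00688 to 0.0484 (DNA methyltransferases), -0.0778 to 0.216 (methyl-CpG readers), -0.66 to 0.10 (Rhox, above 0 only without HxD replicate 1), -0.203 to 0.0742 (paternally expressed imprinted), -0.0760 to 0.0530 (mitosis), -0.11 to 0.0894 (p53 targets), 0.23 to 0.40 (Notch) and -0.0617 to 0.0880 (hypoxia and autophagy). The Sertoli sum differed by 174 CPM with all libraries and by -1.91 CPM without V replicate 2. The cause of these shifts was not tested. Of 111 named genes 102 kept their sign in all 13 settings that gave a value, and 21 of 33 list medians stayed within the replicate spread.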
